A study of Mus musculus with 9 samples.

Results

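The platelet-derived growth factor (PDGF) genes were the 4 ligand genes Pdgfa, Pdgfb, Pdgfc and Pdgfd and the 2 receptor genes Pdgfra and Pdgfrb. They were taken by gene name as 6 of the 55401 genes of the deposited table, and all 6 names were found there. Expression was measured by RNA sequencing in K7M2, a single line of metastatic mouse osteosarcoma cells, labelled wild type in every library. There were 3 libraries of cells given mouse platelets marked (A/R), 3 of cells given mouse platelets, and 3 of untreated cells. The labels do not explain A/R, and it is used here as a name only. All titles give 24 h. By the treatment labels, (A/R) platelets were applied for 27, 28 and 29 h and platelets for 24, 25 and 26 h, so labelled hours and (A/R) cannot be told apart. Nothing says that replicates were separate cultures, so p-values measure a spread between libraries that may be technical only. Libraries held 37465049 to 61366030 estimated counts, at about 4 counts per sequenced fragment.

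PDGF ligands are secreted as disulphide-linked dimers. The A and B chains are cut by proprotein convertases such as furin, whereas the C and D chains carry a CUB domain that extracellular proteases such as tissue plasminogen activator and urokinase remove. Receptor alpha binds the A, B and C chains, receptor beta binds the B and D chains, and ligand joins the receptors into active tyrosine kinase pairs that feed the Ras, phosphatidylinositol 3-kinase and phospholipase C gamma routes. PDGF was first found as a growth factor that platelets release from their granules, and it drives the growth and migration of mesenchymal cells, among them cells of the bone lineage.

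Pdgfa and Pdgfra both lie on chromosome 5, and their levels moved in opposite directions in (A/R) platelet libraries, so sequence upstream of a start of each gene is shown. Both come from RefSeq on build GRCm38.p6, which has such windows for 4 of the 6 genes (Pdgfa, Pdgfc, Pdgfd and Pdgfra). Capitals mark CG dinucleotides. The Pdgfa piece is the 157 bases at chr5:138995038-138995194, minus strand, within the annotated gene but outside its annotated exons, upstream of 1 of 2 RefSeq starts. The Pdgfra piece is the 250 bases at chr5:75152001-75152250, plus strand, just before the RefSeq start.
Pdgfa: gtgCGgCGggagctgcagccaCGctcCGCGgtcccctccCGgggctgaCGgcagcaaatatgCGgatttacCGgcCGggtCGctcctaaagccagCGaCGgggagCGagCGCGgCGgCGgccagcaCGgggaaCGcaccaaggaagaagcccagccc
Pdgfra: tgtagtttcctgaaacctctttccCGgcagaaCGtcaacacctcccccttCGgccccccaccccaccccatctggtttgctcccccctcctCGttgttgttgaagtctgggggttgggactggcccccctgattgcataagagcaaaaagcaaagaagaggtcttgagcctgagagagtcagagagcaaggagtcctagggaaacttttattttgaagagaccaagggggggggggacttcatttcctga
The Pdgfa piece held 20 CG dinucleotides and was 72.0% G or C, whereas the Pdgfra piece held 4 and was 54.4% G or C. Over the 250 bases before each start, the windows at the 2 Pdgfa starts held 28 and 19 CG dinucleotides, more than 92.4% and 80.3% of the 32851 mouse windows. The Pdgfra window held 4, the Pdgfc and Pdgfd windows held 3 each, and the median window held 6.

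Both strands of these windows were searched for GGGCGG (SP1), CCAAT (NF-Y), CACGTG (E box), GCGGGGGCG (EGR1) and TGATGCAA (ATF4 and C/EBP). GGGCGG had 2 matches in 1 Pdgfa window and 1 in the other, and 32.7% of all 250-base windows held it. No other motif of these occurred in a Pdgfa, Pdgfc, Pdgfd or Pdgfra window. CCAAT occurred in 33.8% of all windows, CACGTG in 6.02%, GCGGGGGCG in 2.57% and TGATGCAA in 0.791%. Such matches describe letters only and show no binding.

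In (A/R) platelet libraries both PDGF receptor genes and the B chain gene fell, and the A chain gene rose, against untreated libraries. Pdgfrb was 1.94-fold lower, Pdgfra 1.56-fold lower and Pdgfb 2.31-fold lower, and Pdgfa was 1.54-fold higher. Against platelet libraries, the (A/R) platelet libraries had the same 3 genes lower, and Pdgfa did not pass the test. Between platelet and untreated libraries no PDGF gene passed the test, and the nearest was Pdgfa at 1.32-fold higher. The C chain gene was low in all 9 libraries with no change that could be resolved, and the D chain gene had no counts.

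The test covered 11826 genes, those that reached 1 FPKM (fragments per kilobase of exon, scaled to the mapped fragments of the library) in 3 or more libraries. A gene was called at an adjusted p under 0.05 in edgeR's quasi-likelihood test, and folds below are log2 fold changes ± standard error (SE). Pdgfa, Pdgfb, Pdgfra and Pdgfrb passed the filter, Pdgfb only through platelet and untreated libraries. Pdgfc and Pdgfd did not pass. Of the 4 tested genes, 4 were called between (A/R) platelet and untreated libraries, where 38.8% of all tested genes were called (19.3% higher and 19.5% lower). Between (A/R) platelet and platelet libraries 3 of 4 were called, with 34.3% of all tested genes (17.1% in each direction). Between platelet and untreated libraries 0 of 4 were called, with 0.262% of all tested genes (0.211% higher and 0.0507% lower). At an unadjusted p under 0.05 that comparison held 3 of the 4 and 12.9% of all tested genes, and DESeq2 called 1 of the 4 and 1.9% of all tested genes. The FPKM ranges of the 2 groups did not overlap for 4 of the 4 genes between (A/R) platelet and untreated libraries, with 51.1% of all tested genes. They did not overlap for 4 of 4 between (A/R) platelet and platelet libraries, with 48.9%, and for 3 of 4 between platelet and untreated libraries, with 19.3%. The comparisons share libraries and are therefore not independent of each other.

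**Figure D1:**
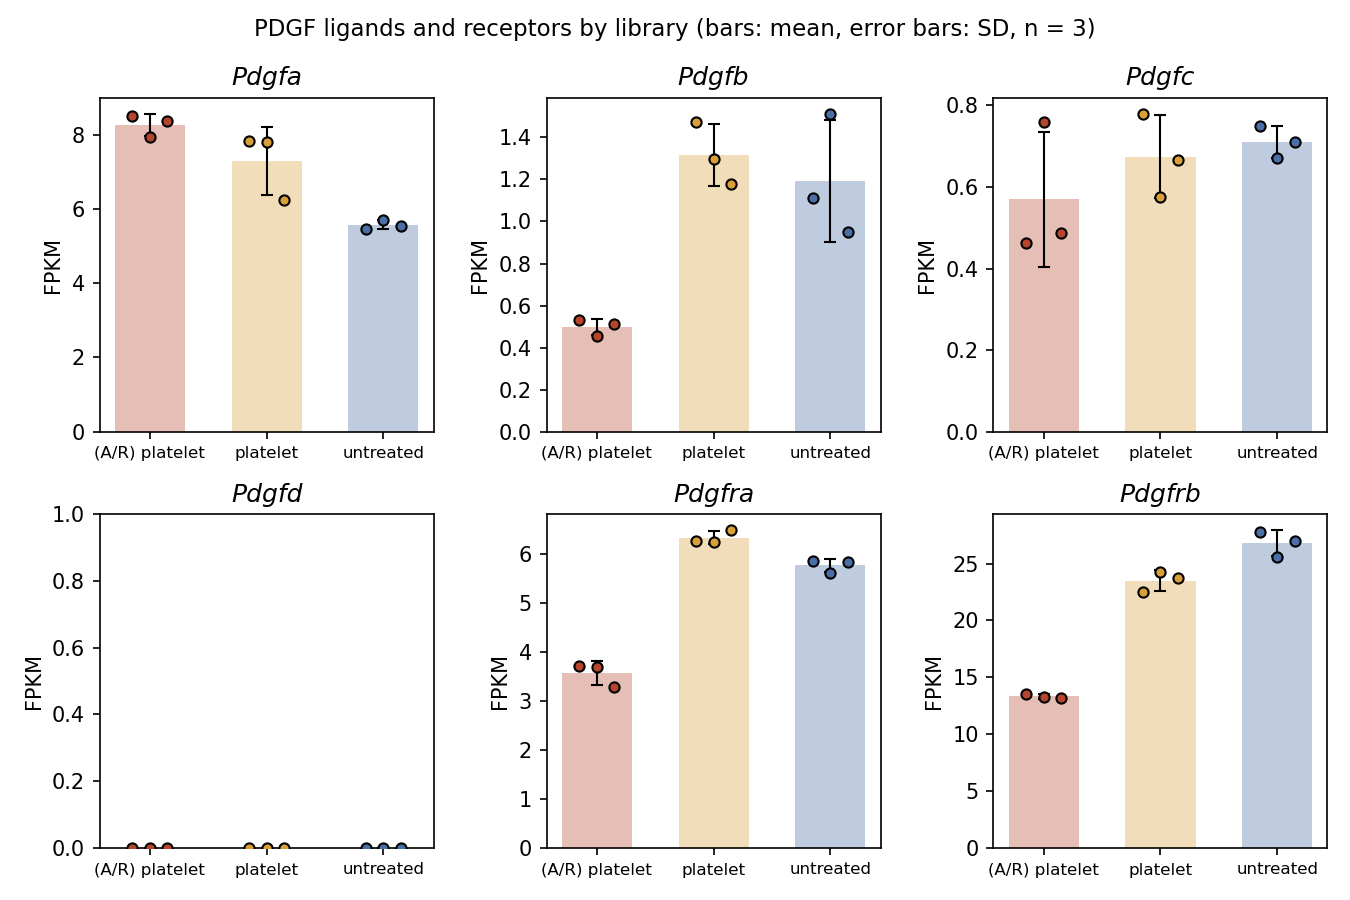
FPKM of the 6 PDGF genes in each library (points), with the mean (bars) and SD (error bars) of the 3 libraries in the (A/R) platelet, platelet and untreated groups, on linear axes from 0. Pdgfb, Pdgfra and Pdgfrb are lowest in all 3 (A/R) platelet libraries, Pdgfa is highest there, and Pdgfd is drawn at 0 because it had no counts.

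By FPKM, the receptor beta gene was the most abundant member in every group and the order below it differed between groups. FPKM here divides by all annotated exon bases of a gene, which lowers genes whose exon bases exceed any 1 transcript. Levels of different genes therefore compare only roughly. That length was 10024 bases for Pdgfra, whose longest transcript has 6834, against 5478 and 5423 for Pdgfrb. It was 3119 against 2060 bases for Pdgfa and 4161 against 2944 for Pdgfb. In (A/R) platelet libraries the order by FPKM was Pdgfrb, Pdgfa, Pdgfra, then Pdgfc and Pdgfb, whose ranges overlapped. In platelet and untreated libraries Pdgfa and Pdgfra overlapped in second place, followed by Pdgfb and then Pdgfc. Within a library, Pdgfa was 2.33 ± 0.203 times Pdgfra in (A/R) platelet libraries (SD, n = 3), 1.15 ± 0.166 times in platelet libraries and 0.965 ± 0.0437 times in untreated libraries. Pdgfrb exceeded 68.5% of tested genes by mean FPKM in (A/R) platelet libraries, 80.8% in platelet libraries and 83.3% in untreated libraries.

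Pdgfa encodes the A chain, a ligand of receptor alpha, and is a protein-coding gene on the minus strand of chromosome 5 (GRCm38 138976014 to 138997370). It had 8.50, 7.93 and 8.36 FPKM in (A/R) platelet libraries, 7.84, 7.81 and 6.24 FPKM in platelet libraries, and 5.46, 5.70 and 5.54 FPKM in untreated libraries. The 3 groups did not overlap, and platelet replicate 3 lay closest to the untreated libraries. The means were 8.26 ± 0.294 in (A/R) platelet, 7.30 ± 0.913 in platelet and 5.57 ± 0.123 FPKM in untreated libraries (SD, n = 3 each), with 180 to 437 fragments behind each value.

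Against untreated libraries Pdgfa rose in (A/R) platelet libraries by 0.62 ± 0.0957 (edgeR adjusted p 0.000928), a rise that 6.61% of tested genes exceeded. In platelet libraries it was higher than in untreated ones by 0.40 ± 0.0957, with a 95% interval of 0.19 to 0.62, at an unadjusted p of 0.00226 and an edgeR adjusted p of 0.166. DESeq2 gave the same 0.40 an adjusted p of 0.0181, and without platelet replicate 3 the edgeR difference was 0.51 with an adjusted p of 0.0708. The (A/R) platelet libraries exceeded the platelet libraries by 0.22 ± 0.0952, at an edgeR adjusted p of 0.112. Without platelet replicate 3 that difference was 0.12 ± 0.0752 (edgeR adjusted p 0.297). An antisense gene, 6330403L08Rik, shares 813 exon bases with Pdgfa, and use of strand is not given in the sources used here. Its FPKM was 2.03 to 2.36 in (A/R) platelet, 2.11 to 2.14 in platelet and 1.81 to 2.21 in untreated libraries, so its part in the Pdgfa values was not tested.

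Pdgfb encodes the B chain, which binds both receptors, on the minus strand of chromosome 15 (79995874 to 80014977). It had 0.529, 0.454 and 0.512 FPKM in (A/R) platelet libraries, 1.47, 1.30 and 1.18 FPKM in platelet libraries, and 1.11, 1.51 and 0.951 FPKM in untreated libraries. Every (A/R) platelet library lay below every other library, whereas the platelet and untreated ranges overlapped. The gene was weakly expressed: about 28 to 36 fragments per (A/R) platelet library, 63 to 88 per platelet library and 41 to 96 per untreated library. Counting error alone was 16.7% to 19.0% of the value in (A/R) platelet libraries.

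Pdgfb fell in (A/R) platelet libraries by 1.21 ± 0.195 on the log2 scale against untreated libraries (edgeR adjusted p 0.00124), and 1.82% of tested genes fell further. Against platelet libraries it fell by 1.36 ± 0.196 (edgeR adjusted p 0.000745). Because it passed the filter only through the libraries in which it is high, it was also tested with every gene that had a count in any library. It then fell by 1.19 ± 0.205 against untreated libraries (edgeR adjusted p 0.00215) and by 1.35 ± 0.205 against platelet libraries (adjusted p 0.00114). The platelet libraries differed from untreated ones by 0.16 ± 0.190, with a 95% interval of -0.27 to 0.59 (edgeR adjusted p 0.767), which leaves room for a change in either direction.

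Pdgfc encodes the C chain, a ligand released by proteolysis that binds receptor alpha, on the plus strand of chromosome 3 (81036416 to 81214040). It had 0.462, 0.759 and 0.488 FPKM in (A/R) platelet libraries, 0.779, 0.575 and 0.667 FPKM in platelet libraries, and 0.748, 0.670 and 0.710 FPKM in untreated libraries. All 3 groups overlapped, with (A/R) platelet replicate 2 at the level of the untreated libraries. With edgeR's count-based filter, under which it could be tested, the change in (A/R) platelet libraries was -0.24 ± 0.219 against untreated libraries (95% interval -0.73 to 0.25, adjusted p 0.485). Against platelet libraries it was -0.18 ± 0.219 (interval -0.67 to 0.31, edgeR adjusted p 0.621). Between platelet and untreated libraries it was -0.06 ± 0.219 (interval -0.55 to 0.44, edgeR adjusted p 0.964). Each library held 30 to 66 fragments of Pdgfc, so these intervals are wide.

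Pdgfd encodes the D chain, a ligand of receptor beta, on the plus strand of chromosome 9 (6168584 to 6378845 in the deposited table). It had 0 counts in all 9 libraries. A limit of 3 fragments per library corresponds to 0.0555 to 0.0916 FPKM, which covers counting error only, so lower expression was not detectable at this depth. No fold change was computed.

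Pdgfra encodes receptor alpha, on the plus strand of chromosome 5 (75152292 to 75198215). It had 3.71, 3.70 and 3.29 FPKM in (A/R) platelet libraries, 6.26, 6.26 and 6.49 FPKM in platelet libraries, and 5.86, 5.62 and 5.85 FPKM in untreated libraries. The (A/R) platelet libraries were the 3 lowest, and every platelet library lay above every untreated library. It fell in (A/R) platelet libraries by 0.64 ± 0.0626 against untreated libraries (edgeR adjusted p 6.57e-05), and by 0.79 ± 0.0627 against platelet libraries (edgeR adjusted p 2.82e-05). The platelet libraries were higher than untreated ones by 0.15 ± 0.0622, with an unadjusted p of 0.0412 and an edgeR adjusted p of 0.367. Of the genes whose exons overlap Pdgfra, Gm42802 and Gm42803 on the opposite strand had at most 4 and 14 counts in any library and Mir7025 at most 2.

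Pdgfrb encodes receptor beta, the receptor that B chain dimers use in pericytes and fibroblasts, on the plus strand of chromosome 18 (61045150 to 61085061). It had 13.5, 13.3 and 13.2 FPKM in (A/R) platelet libraries, 22.5, 24.3 and 23.7 FPKM in platelet libraries, and 27.8, 25.5 and 27.0 FPKM in untreated libraries. The 3 groups did not overlap: the (A/R) platelet libraries lay far below the others, and the platelet libraries slightly below the untreated ones. With 935 to 2184 fragments per library it was the most deeply measured PDGF gene.

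Pdgfrb fell in (A/R) platelet libraries by 0.96 ± 0.0474 against untreated libraries (edgeR adjusted p 1.80e-06), with 3.40% of tested genes falling further. Against platelet libraries it fell by 0.78 ± 0.0472 (edgeR adjusted p 6.36e-06). The platelet libraries differed from untreated ones by -0.18 ± 0.0469, with a 95% interval of -0.28 to -0.07, an unadjusted p of 0.00472 and an edgeR adjusted p of 0.213. These are bulk libraries, in which fewer cells of a type and less RNA per cell cannot be told apart.

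**Figure D2:**
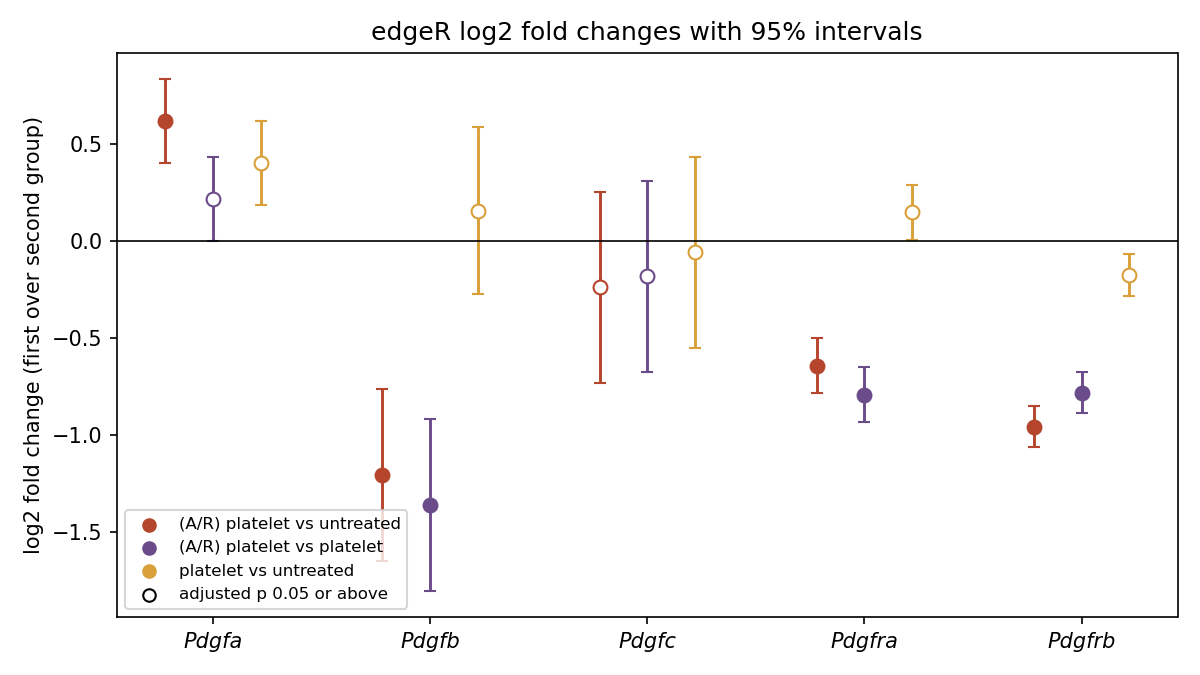
Log2 fold changes from edgeR (points) with 95% intervals (bars) for the 5 PDGF genes with counts, for (A/R) platelet against untreated, (A/R) platelet against platelet, and platelet against untreated libraries; open points have an adjusted p of 0.05 or above, and Pdgfc was fitted under edgeR's count-based filter. Pdgfb lies at -1.21 and -1.36 and Pdgfrb at -0.96 and -0.78 in the (A/R) platelet comparisons, whereas all 5 points of the platelet against untreated comparison are open.

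Ratios between PDGF genes within a library do not depend on library scaling. Their size does depend on the exon length used for each gene, so groups are compared rather than genes. Pdgfrb was 3.65, 3.59 and 4.002 times Pdgfra in (A/R) platelet libraries, 3.59, 3.88 and 3.66 times in platelet libraries, and 4.75, 4.55 and 4.62 times in untreated libraries. The ratio was thus lower in each library given platelets of either kind than in any untreated library, and the (A/R) platelet and platelet ranges overlapped. On the log2 scale it differed from untreated libraries by -0.31 in (A/R) platelet and by -0.32 in platelet libraries, each with a two-sided exact permutation p of 0.1. This is the smallest p that 3 against 3 libraries can give, so the threshold of 0.05 could not be reached. With (A/R) platelet against platelet libraries the difference was 0.01 (exact p 0.9).

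Pdgfa was 16.1, 17.5 and 16.3 times Pdgfb in (A/R) platelet libraries, 5.32, 6.01 and 5.30 times in platelet libraries, and 4.90, 3.77 and 5.83 times in untreated libraries. The (A/R) platelet libraries stood above all others, and the platelet and untreated ranges overlapped. The log2 difference of (A/R) platelet from untreated libraries was 1.80 and from platelet libraries 1.58, each at an exact permutation p of 0.1, and that of platelet from untreated libraries was 0.22 (exact p 0.4). The last value was 0.05 without untreated replicate 2 and 0.36 without untreated replicate 3.

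The A chain gene held most of the ligand FPKM in every group, summed over Pdgfa, Pdgfb and Pdgfc, as Pdgfd had no counts. These shares also depend on the exon lengths used. Its share was 88.5% ± 1.56 in (A/R) platelet, 78.5% ± 1.87 in platelet and 74.6% ± 2.31 in untreated libraries (SD, n = 3 each). The B chain share was 5.34% ± 0.329 in (A/R) platelet, 14.2% ± 0.676 in platelet and 15.9% ± 3.04 in untreated libraries. The summed ligand level was 9.33 ± 0.172 FPKM in (A/R) platelet, 9.29 ± 1.06 in platelet and 7.47 ± 0.363 in untreated libraries.

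The summed receptor level was 16.9 ± 0.415 FPKM in (A/R) platelet libraries, 29.8 ± 0.941 in platelet libraries and 32.6 ± 1.28 in untreated libraries. The receptor sum was 1.82, 1.86 and 1.76 times the ligand sum in (A/R) platelet libraries, 2.85, 3.15 and 3.74 times in platelet libraries, and 4.60, 3.95 and 4.56 times in untreated libraries. No group overlapped another in this ratio. The log2 difference of (A/R) platelet from untreated libraries was -1.27 and from platelet libraries -0.83, and that of platelet from untreated libraries was -0.43, each at an exact permutation p of 0.1. Over the 9 ratio comparisons the Benjamini-Hochberg adjusted p was 0.129 for the 7 with a raw exact p of 0.1.

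**Figure D3:**
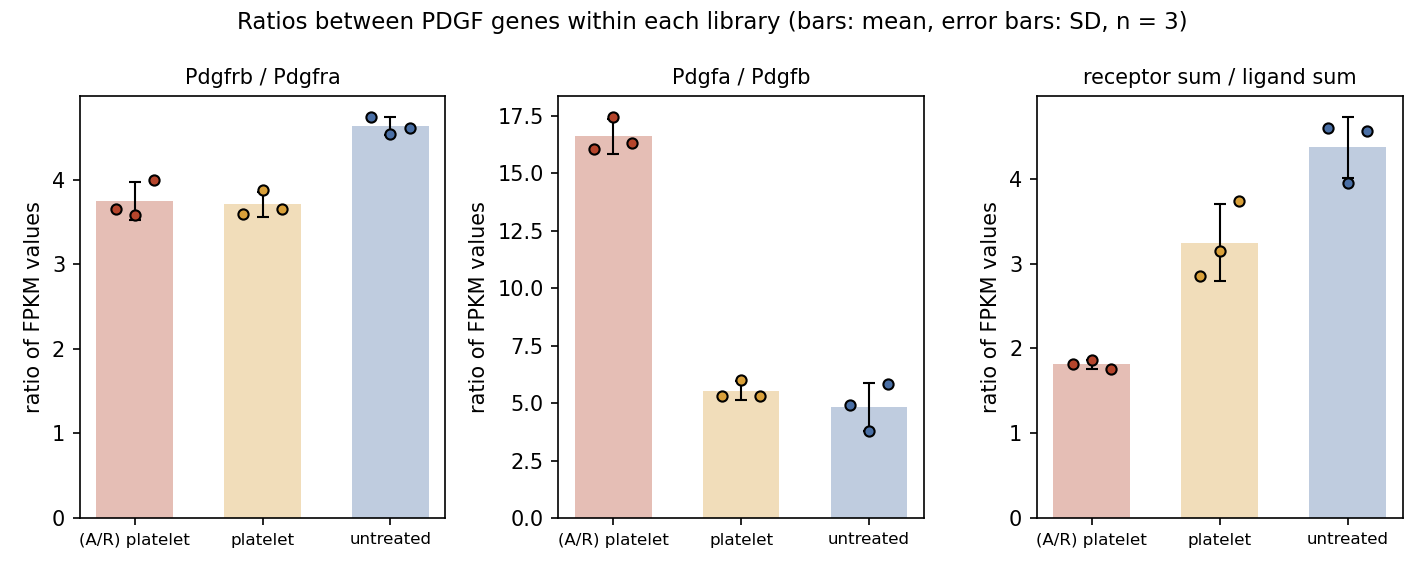
Ratios of FPKM values within each library (points), with the mean (bars) and SD (error bars) of 3 libraries in the (A/R) platelet, platelet and untreated groups, for Pdgfrb over Pdgfra, Pdgfa over Pdgfb, and the receptor sum over the ligand sum. Pdgfrb over Pdgfra is lower in both groups given platelets, at 3.75 and 3.71, than in untreated libraries, at 4.64, whereas Pdgfa over Pdgfb is set apart in (A/R) platelet libraries at 16.6.

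Of 18 listed genes that process or modulate PDGF, 9 passed the filter, and those called were lower in (A/R) platelet than in untreated libraries, a direction in which 19.5% of all tested genes were called. Of 8 listed ligand proteases 3 were tested, and in (A/R) platelet against untreated libraries 2 fell and 0 rose (median log2 fold change -0.21, against 0.00130 over all tested genes). They were Furin, which cuts the A and B chains (-0.27 ± 0.0572, edgeR adjusted p 0.00503), and Plau, urokinase, which can cut the D chain (-0.21 ± 0.0716, adjusted p 0.0464). Plau lost its call in 7 of the 9 fits that left out 1 library (highest adjusted p 0.141, without (A/R) platelet replicate 2). Of 10 listed modulators 6 were tested, of which 5 fell and 0 rose (median -0.48). Nrp1, a co-receptor that can bind PDGF, had 2.26, 2.38 and 2.17 FPKM in (A/R) platelet libraries, 3.58, 3.82 and 3.47 FPKM in platelet libraries, and 3.93, 4.25 and 4.22 FPKM in untreated libraries. It fell by 0.81 ± 0.0695 in (A/R) platelet against untreated libraries (edgeR adjusted p 3.11e-05). Slc9a3r1, a scaffold that binds the tail of receptor beta, fell by 0.58 ± 0.0542 (edgeR adjusted p 5.25e-05). The other 3 that fell were Lrp1, an endocytic receptor that associates with receptor beta (-0.63), Sparc, a matrix protein that binds PDGF (-0.38), and Itgav, an integrin chain (-0.31). Itgav lost its call in 3 of these 9 fits, those without (A/R) platelet replicate 1 or 3 and without untreated replicate 1 (adjusted p up to 0.0558). In platelet against untreated libraries 0 of these 9 proteases and modulators were called, where 0.262% of all tested genes were.

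Of 35 listed signal transducers downstream of the receptors, 34 were tested. In (A/R) platelet against untreated libraries 2 rose, 12 fell and 20 were not called (median -0.10). The 41.2% called lies close to the 38.8% of all tested genes, so the count shows nothing particular to these genes. Fyn, a Src family kinase recruited to the receptors, had 8.12, 8.19 and 8.04 FPKM in (A/R) platelet libraries, 4.29, 3.67 and 3.96 FPKM in platelet libraries, and 3.71, 3.66 and 4.42 FPKM in untreated libraries. It rose by 1.10 ± 0.0945 (edgeR adjusted p 3.29e-05), and Sos2, a Ras exchange factor, rose by 0.57 ± 0.0919 (edgeR adjusted p 0.00126). Gab1, a docking protein, had 2.59, 2.82 and 2.52 FPKM in (A/R) platelet libraries, 5.27, 5.50 and 4.91 FPKM in platelet libraries, and 5.68, 5.75 and 6.70 FPKM in untreated libraries, a fall of 1.14 ± 0.0919 on the log2 scale (edgeR adjusted p 2.20e-05). Pik3r1, the p85 alpha subunit of phosphatidylinositol 3-kinase, fell by 0.92 ± 0.0662 (edgeR adjusted p 1.30e-05). In platelet against untreated libraries 0 of the 34 were called, where 0.262% of all tested genes were.

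Of 11 listed attenuators of receptor signalling 9 were tested, and in (A/R) platelet against untreated libraries 2 rose and 4 fell (median -0.08), against 19.3% of all tested genes called higher and 19.5% lower. Ptpn2, a phosphatase that acts on receptor beta, rose by 0.30 ± 0.0472 (edgeR adjusted p 0.000960), and the adaptor Sh2b3 rose by 0.43 ± 0.0672 (adjusted p 0.000970). Ptprj, a receptor-type phosphatase that acts on receptor beta, fell by 1.05 ± 0.147 (edgeR adjusted p 0.000551). In platelet against untreated libraries 0 of the 9 were called, where 0.262% of all tested genes were.

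Genes known to be induced early by PDGF and by other growth factors were the 1 list with calls in both treated groups. Of 22 listed, 15 were tested. Fos, Fosb, Egr1, Egr3, Nr4a1, Has2 and Atf3 did not pass the filter. Group means of Fos, Fosb, Egr1, Egr3 and Nr4a1 were 0.0455 to 0.320 FPKM, and Has2 had at most 4 counts. Atf3 averaged 1.13 FPKM in (A/R) platelet, 0.102 in platelet and 0.133 in untreated libraries. In (A/R) platelet against untreated libraries 8 rose and 2 fell (median 0.44), where 38.8% of all tested genes were called. In platelet against untreated libraries 4 rose and 0 fell (median 0.37, against -0.00111 over all tested genes), where 0.262% of all tested genes were called. Because the list was chosen with earlier results of these data known, these counts are no independent evidence. Leaving out 1 library in turn left 1 to 3 of the 4 calls, with 1 left, that of Plaur, without untreated replicate 1 or 2. Plaur, the urokinase receptor, had 86.3, 85.5 and 84.5 FPKM in (A/R) platelet libraries, 49.2, 41.3 and 44.7 FPKM in platelet libraries, and 30.0, 31.4 and 30.1 FPKM in untreated libraries. It rose by 1.54 ± 0.0612 in (A/R) platelet libraries (edgeR adjusted p 6.30e-07) and by 0.58 ± 0.0602 in platelet libraries (adjusted p 0.00627), and the 3 groups did not overlap. Fosl1, an AP-1 subunit, rose by 0.88 ± 0.0465 in (A/R) platelet libraries (edgeR adjusted p 2.35e-06) and by 0.38 ± 0.0462 in platelet libraries (adjusted p 0.0128), where its call was lost without untreated replicate 1 or 2 (0.0641, without replicate 1).

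The other 2 genes called in platelet libraries were Jun, another AP-1 subunit, and Dusp6, a phosphatase of ERK. Jun rose by 0.43 ± 0.0612 in platelet against untreated libraries (edgeR adjusted p 0.0322) and differed by 0.10 ± 0.0611 in (A/R) platelet against untreated libraries (adjusted p 0.225). Dusp6 rose by 0.46 ± 0.0627 in platelet libraries (edgeR adjusted p 0.0264) and differed by 0.11 ± 0.0627 in (A/R) platelet libraries (adjusted p 0.218). The calls in platelet libraries were lost in 7 of 9 fits without 1 library for Jun and in 8 of 9 for Dusp6, at adjusted p values up to 0.138 and 0.129, both without platelet replicate 3. Tested directly, (A/R) platelet libraries were lower than platelet libraries by 0.33 for Jun (edgeR adjusted p 0.00301) and by 0.35 for Dusp6 (adjusted p 0.00236). Dusp1, a MAP kinase phosphatase, fell by 0.57 ± 0.103 in (A/R) platelet against untreated libraries (edgeR adjusted p 0.00219), and Mcl1, an inhibitor of cell death, fell by 0.11 ± 0.0347 (adjusted p 0.0391), a call lost in 8 of 9 such fits (adjusted p up to 0.122, without (A/R) platelet replicate 2).

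**Figure D4:**
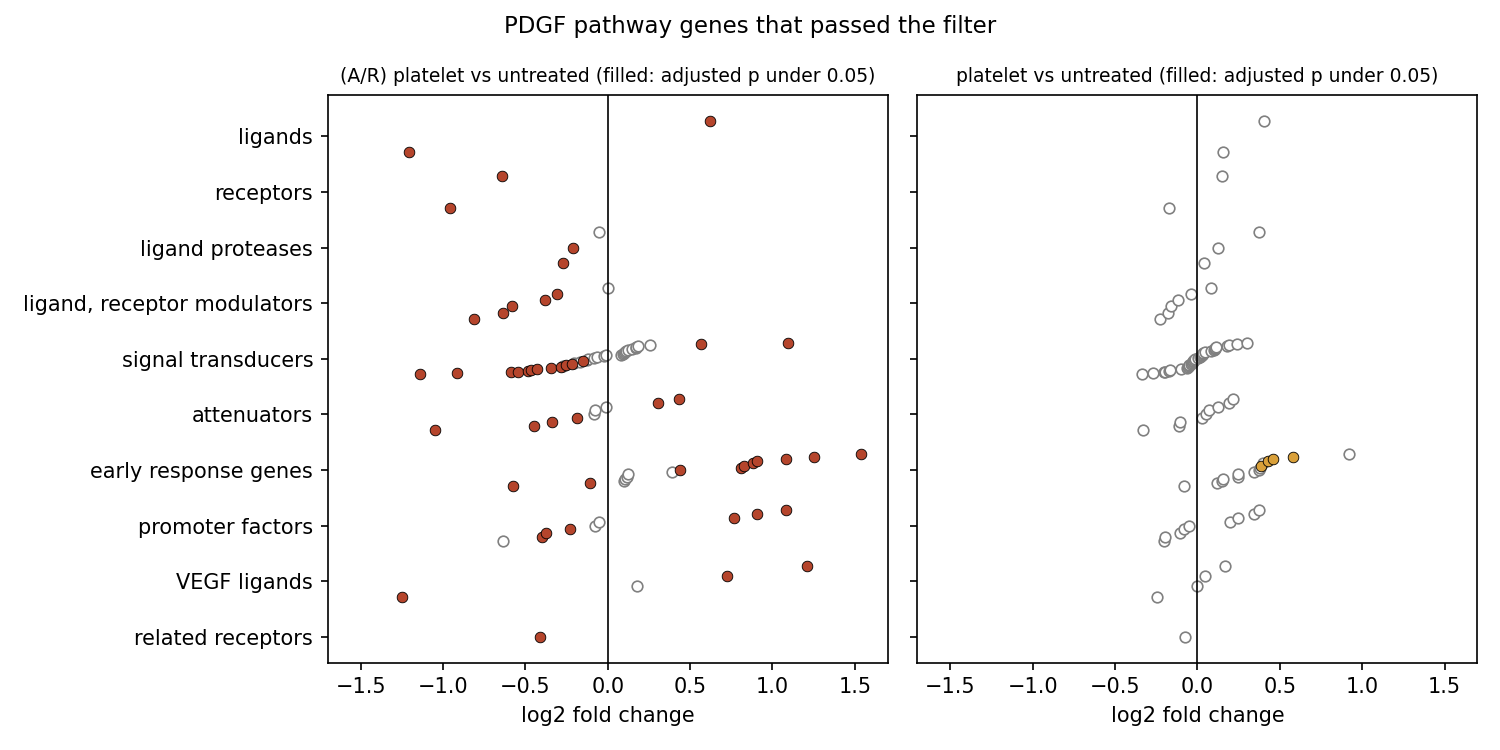
Log2 fold changes of the tested genes of 10 PDGF-related lists (1 point a gene), in (A/R) platelet against untreated libraries (left) and platelet against untreated libraries (right); filled points have an edgeR adjusted p under 0.05. The 2 receptors and 5 of the 6 modulators are filled and below 0 on the left, and the 4 filled points on the right all belong to early response genes.

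The ligands of the related VEGF receptors and the receptors closest to the PDGF receptors were set beside them. Of 5 VEGF family ligand genes 4 were tested, and in (A/R) platelet against untreated libraries 2 rose and 1 fell, with 0 called between platelet and untreated libraries (38.8% and 0.262% of all tested genes). Vegfa, the main angiogenic ligand, rose by 1.21 ± 0.101 (edgeR adjusted p 2.69e-05) and Vegfc, a lymphatic ligand, by 0.72 ± 0.0674 (adjusted p 5.09e-05), whereas Vegfd fell by 1.25 ± 0.0992 (adjusted p 2.04e-05). Of 6 related receptor genes, Csf1r alone passed the filter, while Flt3 had no counts and Kit, Kdr, Flt1 and Flt4 had at most 4, 19, 94 and 4 counts in a library.

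Csf1r, the receptor of colony stimulating factor 1, starts 15.54 kb beyond the end of Pdgfrb on the same strand. It had 312, 330 and 309 FPKM in (A/R) platelet libraries, 400, 430 and 403 FPKM in platelet libraries, and 447, 422 and 442 FPKM in untreated libraries. It fell in (A/R) platelet libraries by 0.41 ± 0.0454 against untreated libraries (edgeR adjusted p 0.000133) and by 0.34 ± 0.0454 against platelet libraries (adjusted p 0.000504), and platelet libraries differed from untreated ones by -0.07 ± 0.0453 (adjusted p 0.521). Csf1r was 23.0, 24.8 and 23.5 times Pdgfrb in (A/R) platelet libraries, 17.8, 17.7 and 17.0 times in platelet libraries, and 16.1, 16.5 and 16.4 times in untreated libraries. The 3 groups did not overlap in this ratio, for which no test was run. Kit lies 376.7 kb beyond Pdgfra, and with Kdr next to it could not be tested.

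Transcription factors known at PDGF gene promoters moved in both directions. Of 11 listed 9 were tested, and in (A/R) platelet against untreated libraries 3 rose and 3 fell, with 38.8% of all tested genes called. Between platelet and untreated libraries 0 were called, with 0.262% of all tested genes. Srf, which acts at growth factor response genes, rose by 1.08 ± 0.0664 (edgeR adjusted p 5.30e-06), and Klf5, a zinc finger activator of Pdgfa in vascular cells, rose by 0.76 ± 0.0779 (adjusted p 8.52e-05). Myc was the other gene that rose, by 0.91. Sp3, which binds GC boxes, fell by 0.37 ± 0.0775 (edgeR adjusted p 0.00486), and Nfyc, a subunit of NF-Y, fell by 0.40 ± 0.0866 (adjusted p 0.00599). Sp1 was the third that fell, by 0.23. Egr1 did not pass the filter and Wt1 had no counts.

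The genes most like each tested PDGF gene were found by Pearson correlation of log2(FPKM + 1) over the 9 libraries, among 9806 protein-coding genes that passed the filter. The libraries form 3 groups, so r largely follows the group means, and no p is given. Among the genes most like Pdgfrb were Kremen1 (r = 0.998) and Slc6a6 (0.998), and Pdgfra was most like Kcnf1 (0.997), St3gal1 (0.993) and Mllt1 (0.993). Kremen1 averaged 5.19 ± 0.0381 FPKM in (A/R) platelet, 9.28 ± 0.495 in platelet and 10.6 ± 0.561 in untreated libraries, in the same order as Pdgfrb. Kcnf1 averaged 22.8 ± 0.846 FPKM in (A/R) platelet, 39.3 ± 0.994 in platelet and 36.9 ± 0.993 in untreated libraries, in the same order as Pdgfra. Pdgfb was most like Arl6ip5 (r = 0.988), Prelid1 (0.986) and Pmm2 (0.985). Pdgfa was most like Sh3bp2 (r = 0.975), Tsen54 (0.972) and Mob3a (0.949).

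Summed markers of platelets, leukocytes and erythroid cells were low in all groups. The summed level of 18 platelet markers was 5.31 to 5.94 CPM (counts scaled to the library total) in (A/R) platelet, 5.54 to 7.28 in platelet and 5.66 to 8.49 in untreated libraries. Gp6, Tubb1, Clec1b and Treml1, all defining platelet genes, had no counts in any library, and Ppbp, the 1 platelet marker that passed the filter, was lower in (A/R) platelet than in untreated libraries by 1.00 (edgeR adjusted p 0.00771). The sum of 12 leukocyte markers was 5.58 to 9.32 CPM in (A/R) platelet, 5.09 to 15.7 in platelet and 4.59 to 8.94 in untreated libraries, with Cd3e, Cd3g and S100a8 at 0. Cd68 and Lyz2 passed the filter and were not called in any comparison. Cd68 averaged 3.45 ± 0.865 FPKM in (A/R) platelet, 3.18 ± 0.639 in platelet and 2.65 ± 0.143 in untreated libraries (SD, n = 3). Lyz2 averaged 0.454 ± 0.398, 2.10 ± 2.51 and 1.16 ± 0.862 FPKM in the same groups. The sum of 7 erythroid markers was 1.20 to 1.92 CPM in (A/R) platelet, 1.41 to 2.36 in platelet and 0.913 to 1.73 in untreated libraries, with Hbb-bt at 0. Hba-a1 passed the filter, at a mean of 1.29 FPKM in (A/R) platelet, 1.28 in platelet and 1.18 in untreated libraries.

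Pericytes and endothelial cells are known sources of PDGF receptor beta and of the B chain. The sum of 8 pericyte markers was 0.318 to 0.709 CPM in (A/R) platelet, 0.735 to 1.06 in platelet and 0.240 to 0.442 in untreated libraries, with Kcnj8 at 0 and no marker above 19 counts. The sum of 6 endothelial markers was 2.61 to 3.48 CPM in (A/R) platelet, 5.45 to 5.86 in platelet and 4.76 to 7.09 in untreated libraries, with Cldn5 at 0. Most of it was Cdh5, which fell by 1.02 in (A/R) platelet against untreated libraries (edgeR adjusted p 0.00219), as Pdgfb did, and its part in the Pdgfb result was not tested. Of 10 markers of the osteoblast lineage, Runx2, Col1a1, Col1a2 and Spp1 had at least 1 FPKM in all libraries. Alpl, Ibsp and Dlx5 had no counts, and Sp7, Bglap and Bglap2 had at most 8, 8 and 10. Their sum was 1788 to 1862 CPM in (A/R) platelet, 1991 to 2104 in platelet and 2193 to 2256 in untreated libraries, the same order as Pdgfrb, and its part in the receptor results was not tested.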

How the data were processed

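Gene expression was measured by RNA sequencing of total RNA from 9 K7M2 libraries, prepared with an mRNA kit per the labels' protocols. The FPKM values and the counts were deposited by the authors in 1 gene table, on GRCm38 (mm10) per the submitters' processing notes. For aligner, counter and strand, settings were not given in the sources used here. The deposited counts are whole numbers but behave as estimated counts: 99.3% to 99.5% of single-transcript genes lay within 1% of FPKM times length times 1 factor per library, and genes piled up at 4 counts. A FPKM of 0.0001 stands for 0 counts in the deposited table. The FPKM length matches the union of GENCODE M21 exons to within 0.369% for each PDGF gene with counts, so the values hold no isoform information. Levels of different genes relative to each other depend on that length.

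Counts were fitted with edgeR 4.0.16 in R 4.3.3 (quasi-likelihood, TMM scaling, 1 mean per group, all 9 libraries, no covariates), with Benjamini-Hochberg adjustment over 11826 genes. Ratios were compared by exact permutation. Alternatives covered scaling, tool, filter, pseudocount, divided counts, fewer libraries and a replicate block. Named genes were the 6 PDGF genes, the neighbours Csf1r, Kit and Kdr, the 3 most alike genes per tested PDGF gene, and from each list the 2 rises and 2 falls with the smallest p between (A/R) platelet and untreated libraries, plus all calls between platelet and untreated libraries. Some genes that this rule names are not reported here. Other genes named were chosen after their values were seen. The PDGF genes and the lists were chosen with earlier results of these data known, so counts over them are no independent evidence.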

Additional observations from a re-analysis of the deposited data

How the results depend on the processing

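Over 20 alternative fits per comparison, the direction of change of Pdgfa, Pdgfb, Pdgfra and Pdgfrb was kept, and the calls in both (A/R) platelet comparisons were kept (4 and 3 PDGF genes in each fit). In platelet against untreated libraries, where 31 genes were called in all, DESeq2 called 225 genes and 1 PDGF gene (Pdgfa, 0.40, adjusted p 0.0181; range over all fits 0.0181 to 0.432), and a fit of those 6 libraries alone called 18. Leaving out 1 library in turn gave 18 to 26 genes and 0 PDGF genes, the lowest without platelet replicate 3. The cause of these moves was not tested. Same-numbered libraries did not deviate together (correlations of deviations -0.0301 to 0.0517), so the numbers give no pairing. With the replicate block 0 genes were called in that comparison (1337 at an unadjusted p under 0.05), 4171 between (A/R) platelet and untreated and 3725 between (A/R) platelet and platelet libraries, and calls of PDGF genes stayed at 0, 4 and 3. The 4 early response calls of platelet against untreated libraries (Plaur, Fosl1, Jun and Dusp6) then had adjusted p values of 0.0534 to 0.0817. On log2(FPKM + 1), which understates changes of low genes, Pdgfb changed by -0.54 in (A/R) platelet against untreated libraries. Leaving out 1 library in turn, an alternative chosen after seeing the data, kept the sign of each ratio difference except Pdgfrb over Pdgfra between (A/R) platelet and platelet libraries (-0.03 to 0.05). Depth limits Pdgfb and Pdgfc, at 28 to 96 fragments a library, and Pdgfd, for which no value could be fitted.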
